A study of Cladosporium europaeum with 50 samples.

Results

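Genes annotated as transcription factors were followed in a mould isolated from polluted soil, strain F32 of Cladosporium europaeum, under exposure to polychlorinated biphenyls (PCB). A gene was taken if its annotation contained Zn(2)-C6, C2H2, transcription factor, bZIP, BHLH, homeobox, GATA or Myb in any case, and left out if any annotation contained kinase. This gave 32 of the 705 annotated genes and of the 920 genes in all that had a row in the authors' tables of comparisons. By class they were 15 Zn(2)-C6 proteins, 10 C2H2 proteins, 4 bZIP proteins, 1 Myb-like protein and 2 others, and 0 genes matched BHLH, homeobox or GATA. A further gene matched C2H2 and also carried the annotation of a protein kinase, and was left out.

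Cultures in a liquid mineral medium held 5 g/L glucose and either 6 mg/L of PCB180, PCB153, PCB101 or PCB52 or no PCB, and mycelium was sampled after 24 h and after 96 h. By the labels, each of the 10 groups held 5 samples, and every group, controls included, was the same strain on the same glucose. The congeners carry increasing numbers of chlorine atoms from PCB52, a tetrachlorobiphenyl, through PCB101, a pentachlorobiphenyl, and PCB153, a hexachlorobiphenyl, to PCB180, a heptachlorobiphenyl. Nothing in the labels ties replicates to separate cultures, and the spread behind each p-value may therefore be technical.

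The values are the authors' log2 fold changes (log2FC) of a congener against the control of its own hour, given with a standard error (after the ± sign throughout), an adjusted p and the gene's mean normalized count. Values of single samples were not used here, and the depth per sample is unknown. A gene has a row in a comparison with a control where its adjusted p was under 0.05 and its log2FC was at least 1 in size, so "rose" and "fell" stand for genes that met both. A transcription factor gene without a row for a congener missed at least 1 of these criteria or was not tested, and may still have changed. The RNA came from whole mycelium, so fewer hyphae that express a gene and less RNA per hypha cannot be told apart.

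Transcription factors bind DNA and set the rate at which nearby genes are transcribed, and fungi group them by the fold that contacts DNA. Zn(2)-C6 proteins hold a pair of zinc ions in a cluster of cysteines, are largely restricted to fungi, and often govern single pathways of carbon, nitrogen or secondary metabolism, as Gal4 does for galactose in yeast. C2H2 zinc fingers occur in all eukaryotes and in fungi include regulators of glucose repression and of the response to ambient pH. Proteins of the bZIP class bind DNA as dimers through a basic region and a leucine zipper, and in fungi include regulators of oxidative stress and of amino acid starvation. The annotations here name domains only, so the targets of these genes are not known from the files.

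At 24 h a single transcription factor gene had a row. Under PCB180, the Zn(2)-C6 gene ptg000011l.9 was 31.6-fold higher than in the control, with a log2FC of 4.98 ± 0.84 (95% interval 3.35 to 6.62; adjusted p 2.77e-05) by the authors' deposited table. It had the smallest p of the 2 genes with a row for PCB180 at that hour, when 0.0177% of 11313 tested genes were listed. Its mean normalized count was 580 in the authors' deposited table. That count is pooled over all samples and is not the depth at 24 h. The standard error of this gene was the widest of any transcription factor value, and how the rise was spread over the samples is not known here. This gene had no row at 96 h and none for another congener. The difference between 96 h and 24 h was not tested, since its value at 96 h is not in the rows used here. PCB153 and PCB52 at 24 h had 0 rows for a transcription factor gene, among 6 listed genes (0.053% of those tested) for PCB153 and 1 (0.00884%) for PCB52. For PCB101 at 24 h no gene of any kind had a row, and whether that comparison was run is not known here.

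At 96 h, 24 transcription factor genes had a row for PCB180, 13 for PCB153, 1 for PCB101 and 0 for PCB52. Under PCB180, 11 rose and 13 fell, where 4.59% of all tested genes rose and 2.67% fell. The share that rose was 45.8% of the listed transcription factor genes, beside 63.2% of all 821 listed genes and 57.1% of the 620 listed genes with an annotation. Under PCB153, 10 rose and 3 fell, where 1.82% of all tested genes rose and 0.579% fell. Here the share that rose was 76.9%, beside 75.9% of all 261 listed genes and 73.7% of the 194 with an annotation. The authors' comparisons listed 7.26% of 11313 tested genes for PCB180, 2.40% of 10874 for PCB153, 0.0796% of 11313 for PCB101 and 0.00884% of 11313 for PCB52 at this hour. How many transcription factor genes were tested is not in the files, so these percentages cannot be set against a share of the class. Transcription factors made up 3.87% of the annotated genes listed for PCB180 and 6.70% of those listed for PCB153. Their median absolute log2FC was 1.52 for PCB180 and 1.30 for PCB153 in the authors' deposited table, beside 1.46 and 1.48 over all listed genes.

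**Figure D1:**
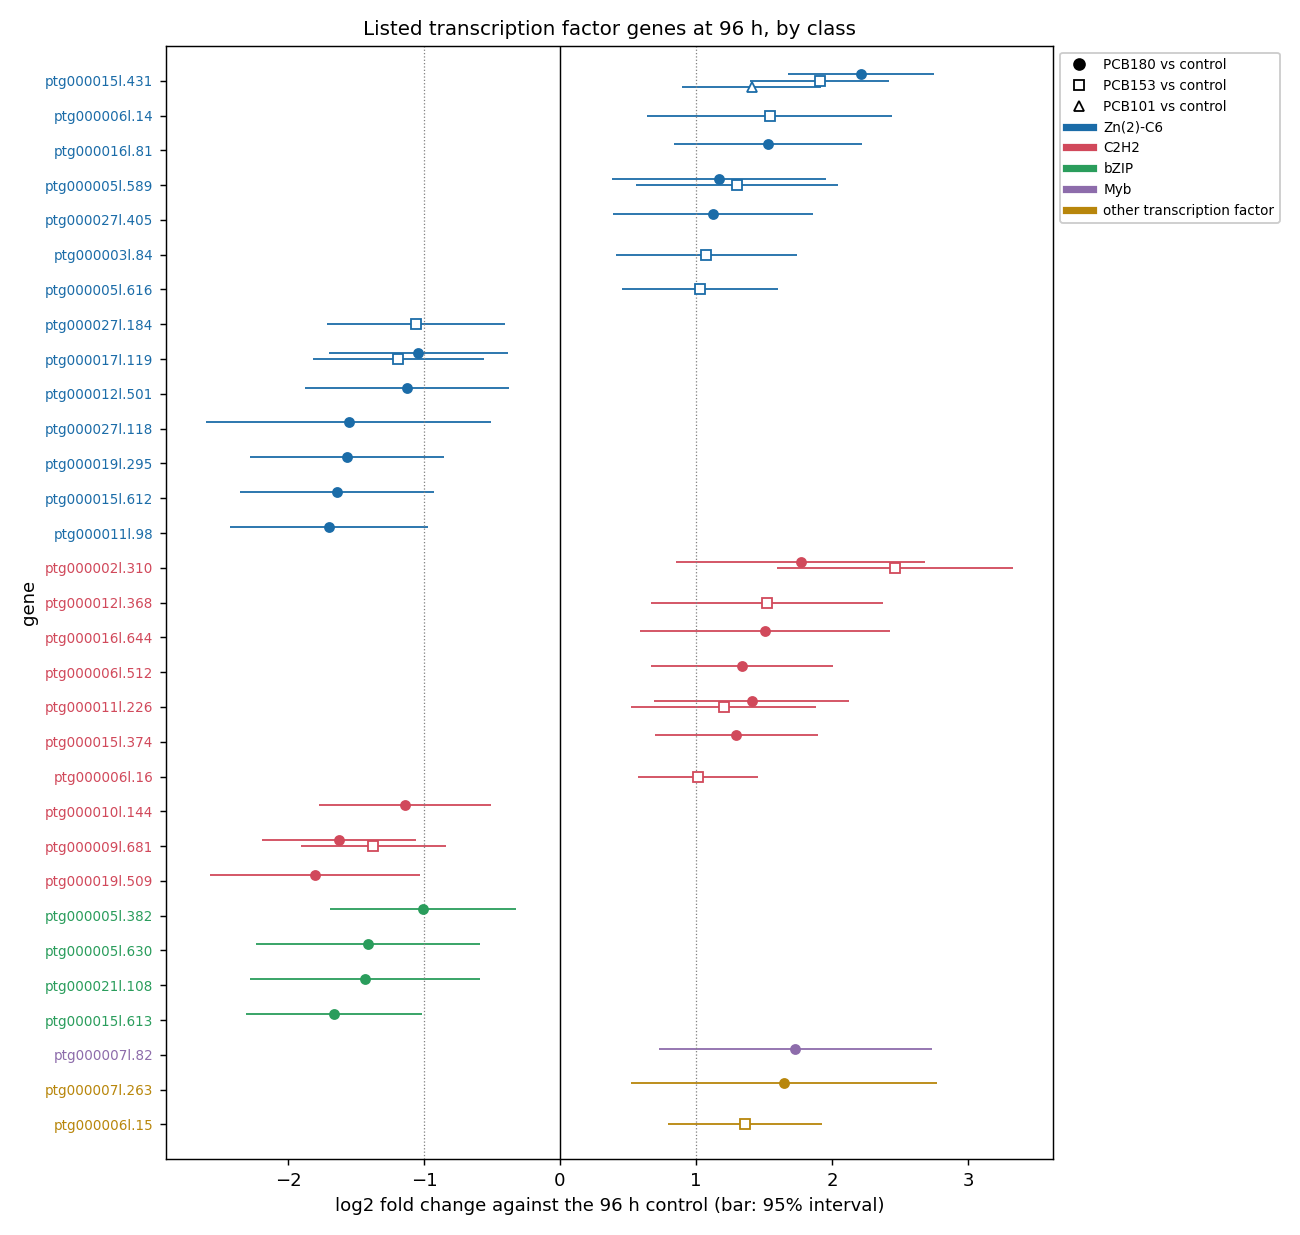
Log2 fold change (log2FC) against the 96 h control for each transcription factor gene with a row at 96 h, with 95% intervals as bars, coloured by class; filled circles are PCB180, open squares PCB153 and the open triangle PCB101, and dotted lines mark an absolute log2FC of 1. The 4 bZIP genes lie on the left and have PCB180 values only, and ptg000015l.431 has a value for 3 congeners.

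The Zn(2)-C6 gene ptg000015l.431 had the smallest adjusted p of all transcription factor genes and was the single one of them that rose under 3 congeners at 96 h. Under PCB180 it was 4.63-fold higher than in the control, with a log2FC of 2.21 ± 0.27 and adjusted p 2.74e-12 in the authors' deposited table. For PCB153 the log2FC was 1.91 ± 0.26 (3.76-fold; adjusted p 7.70e-10), by the authors' deposited table. For PCB101 it was 1.41 ± 0.26 (2.66-fold) with adjusted p 0.000348, again from the authors' deposited table. By p it ranked 2 of the 821 genes listed for PCB180, 3 of the 261 for PCB153 and 2 of the 9 for PCB101. The size of its change was less extreme, at rank 87 for PCB180 and rank 65 for PCB153 by absolute log2FC. All 3 values use the same 96 h control samples and are therefore not independent.

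Between congeners, the log2FC of ptg000015l.431 was 2.21 for PCB180 and 1.41 for PCB101 in the authors' deposited table, a difference of 0.80 ± 0.27 (95% interval 0.28 to 1.32). A two-sided normal test of the difference took a correlation of 0.5 for the shared control. Its adjusted p over the 7 genes listed for both congeners was 0.00963, and 3 of the 7 genes had one under 0.05. The call for ptg000015l.431 was lost with a correlation of 0 (adjusted p = 0.119) and with an adjustment over all pairs of congeners together (adjusted p = 0.105). PCB153 minus PCB101 was 0.50 (95% interval -0.010 to 1.01; adjusted p = 0.165 over 9 genes, and 0.0396 with a correlation of 0.7). PCB180 minus PCB153 was 0.30 (95% interval -0.22 to 0.82), with an adjusted p of 0.977 over the 171 genes listed for both by the same normal test. The test rests on standard errors that were 1.03 to 1.08 times as large for PCB180 as for PCB153 in all 171 genes listed for both, and 1.05 to 1.06 times as large as for PCB101 in all 7, in the authors' deposited table. A PCB180 group with 1 sample fewer than the others in the fit would give about 1.06 if spread and depth were equal. The labels give 5 samples for every group, and the number of samples the authors fitted is not given in the sources used here. What made these standard errors wider was not tested. With the correlation of a PCB180 group with 1 sample fewer, 0.47, the adjusted p for PCB180 minus PCB101 was 0.0126. The 3 congeners differ in the number of chlorine atoms and in their positions at once, and doses were matched by mass.

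Of the other Zn(2)-C6 genes under PCB180, 3 rose and 6 fell. The gene ptg000016l.81 rose by a log2FC of 1.53 ± 0.35 and ptg000027l.405 by 1.12 ± 0.38 in the authors' deposited table. Deepest among the falls of the class were ptg000011l.98 at -1.70 ± 0.37, to 30.8% of the control level, and ptg000015l.612 at -1.64 ± 0.36, to 32.1%, by the authors' deposited table. Further falls were ptg000019l.295 at -1.56 ± 0.36 and ptg000027l.118 at -1.55 ± 0.53, whose standard error was the widest of the class at 96 h and whose mean normalized count was 97.5, per the authors' deposited table. The gene ptg000012l.501 fell by 1.13 ± 0.38 (log2), with a mean normalized count of 77.1, in the authors' deposited table. An adjusted p under 0.01 was reached by 5 of the 10 Zn(2)-C6 genes with a row for PCB180, by the authors' deposited table. Of all 821 genes listed for PCB180, 384 reached it.

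Under PCB153, 5 Zn(2)-C6 genes rose and 2 fell, and 1 of the 7, ptg000015l.431, had an adjusted p under 0.01 in the authors' deposited table. Of all 261 genes listed for PCB153, 98 reached that threshold. The gene ptg000006l.14 rose by a log2FC of 1.54 ± 0.46, ptg000003l.84 by 1.08 ± 0.34 and ptg000005l.616 by 1.03 ± 0.29 in the authors' deposited table. The falls were ptg000017l.119, set beside its PCB180 value further on, and ptg000027l.184 at -1.06 ± 0.33 (adjusted p 0.0456) in the authors' deposited table. Values this close to 1 sit at the edge of the list: the nearest to it were the bZIP gene ptg000005l.382 under PCB180 at -1.01 and the C2H2 gene ptg000006l.16 under PCB153 at 1.02, by the authors' deposited table, and values just outside it were not used here.

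Of the 10 C2H2 genes, 5 rose and 3 fell under PCB180. The largest rise was in ptg000002l.310, 3.41-fold, with a log2FC of 1.77 ± 0.47 in the authors' deposited table. The genes ptg000016l.644, ptg000011l.226 and ptg000006l.512 rose by 1.51 ± 0.47, 1.41 ± 0.37 and 1.34 ± 0.34 (log2), with mean normalized counts of 29.6, 58.7 and 65.6, per the authors' deposited table. The gene ptg000006l.512 is also annotated with the regulatory domain of a xylanolytic transcriptional activator, a domain of fungal transcription factors. The other gene that rose, ptg000015l.374 at 1.30 ± 0.31 in the authors' deposited table, carries a LYAR-type finger, named for a nucleolar protein of mammals. The falls were in ptg000019l.509 at -1.80 ± 0.39, to 28.7% of the control level, ptg000009l.681 at -1.63 ± 0.29 and ptg000010l.144 at -1.14 ± 0.32 in the authors' deposited table. The fall of ptg000019l.509 had the largest size of any transcription factor gene that fell, and that of ptg000009l.681 the smallest adjusted p among them, 6.27e-06, by the authors' deposited table.

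Under PCB153, 4 C2H2 genes rose and 1 fell. The gene ptg000002l.310 was 5.52-fold higher than in the control, with a log2FC of 2.46 ± 0.44 (adjusted p 2.80e-05), the largest rise of a transcription factor gene at 96 h in the authors' deposited table. The gene ptg000012l.368 rose by 1.52 ± 0.43 with a mean normalized count of 33.6, in the authors' deposited table; its finger is of the ZN622, Rei1 and Reh1 type, proteins that in yeast act in the maturation of the large ribosomal subunit rather than on promoters. The gene ptg000006l.16 rose by 1.02 ± 0.23 and ptg000011l.226 by 1.20 ± 0.35, while ptg000009l.681 fell by 1.37 ± 0.27 (log2), in the authors' deposited table. An adjusted p under 0.01 was reached by 6 of 8 C2H2 genes for PCB180 and by 3 of 5 for PCB153 in the authors' deposited table. Over all listed genes it was reached by 384 of 821 for PCB180 and by 98 of 261 for PCB153.

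Set beside each other, the Zn(2)-C6 and C2H2 classes had 4 rises to 6 falls and 5 rises to 3 falls under PCB180, and 5 to 2 and 4 to 1 under PCB153. The median absolute log2FC under PCB180 was 1.54 for Zn(2)-C6 and 1.46 for C2H2 genes in the authors' deposited table, and under PCB153 it was 1.19 for Zn(2)-C6 and 1.37 for C2H2 genes. Median standard errors were 0.37 for Zn(2)-C6 and 0.35 for C2H2 genes under PCB180, and 0.33 for Zn(2)-C6 and 0.35 for C2H2 genes under PCB153. No test of the classes against each other was made, and neither class is called different from the other on these counts.

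**Figure D2:**
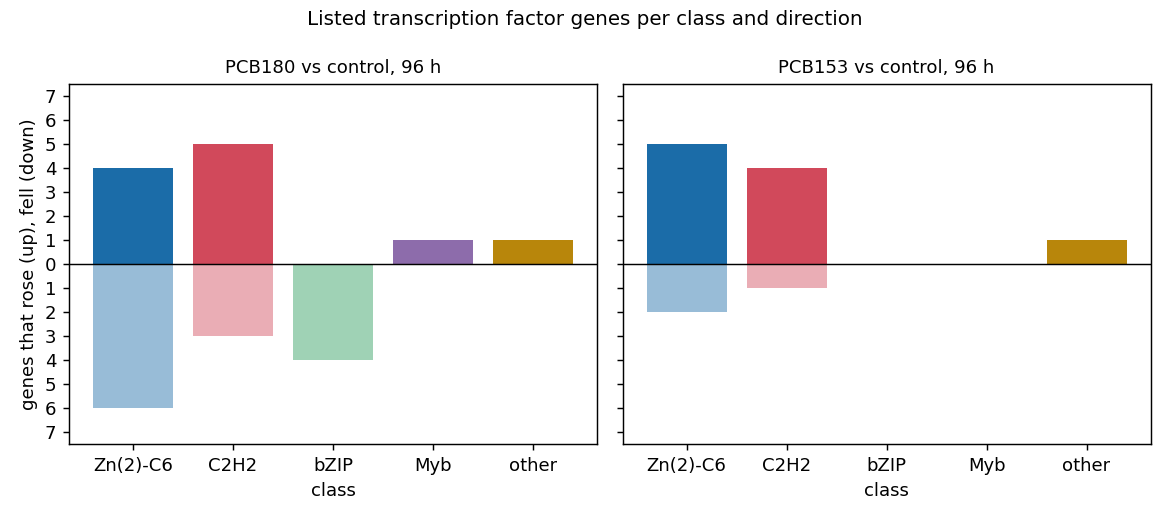
Number of transcription factor genes per class that rose (bars above 0) or fell (paler bars below 0) at 96 h, for PCB180 on the left and PCB153 on the right. The bZIP class has 4 falls under PCB180 and no bar under PCB153, while the Zn(2)-C6 and C2H2 classes have bars in both directions for both congeners.

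The mean normalized count is pooled over all samples, so it is only a rough guide to the depth behind the estimate of a comparison. It is not corrected for gene length and is not given as a level to compare between genes. Its median was 357 over the 15 Zn(2)-C6 genes and 350 over the 10 C2H2 genes in the authors' deposited table. Under PCB180 the 5 C2H2 genes that rose had counts of 29.6 to 970 and the 3 that fell had 1079 to 1381, in the authors' deposited table. The Zn(2)-C6 genes did not separate in this way, with 339 to 854 for the 4 that rose and 77.1 to 1202 for the 6 that fell, per the authors' deposited table. Without the 25% of listed genes with the lowest counts, 2 C2H2 genes rose and 3 fell under PCB180. Over all genes listed for PCB180, the median count was 143 for those that rose and 527 for those that fell in the authors' deposited table, and whether this bears on the C2H2 pattern was not tested. A mean normalized count under 100 was found for 2 of the 15 Zn(2)-C6 genes and 5 of the 10 C2H2 genes in the authors' deposited table, beside 31.1% of all 920 listed genes.

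**Figure D3:**
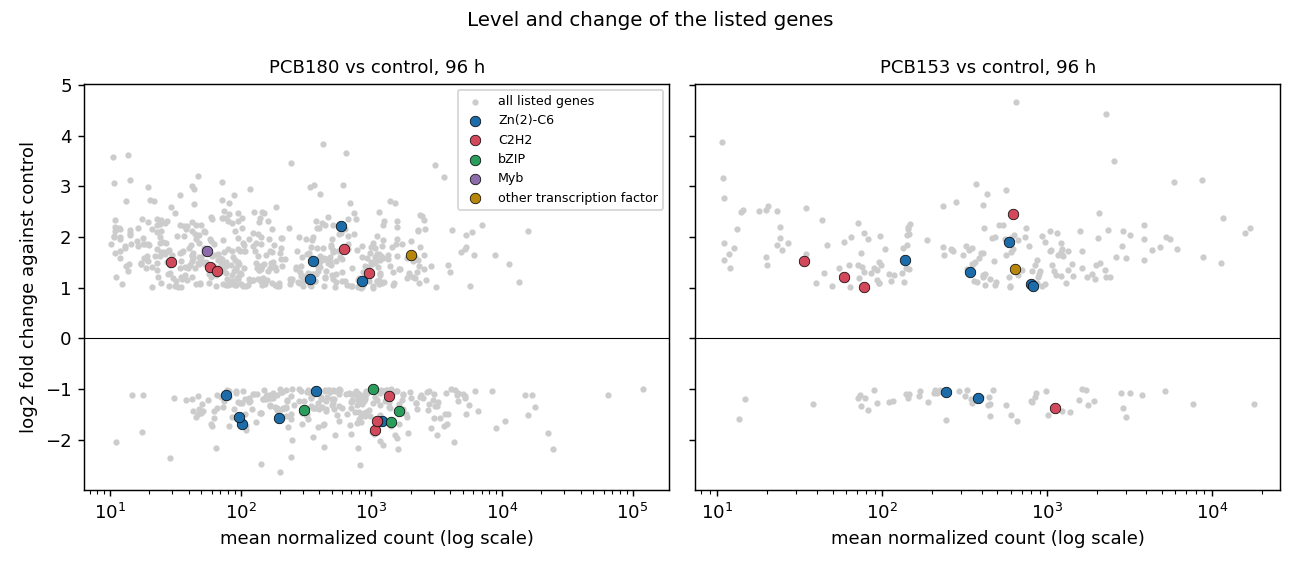
Log2 fold change (log2FC) against control (vertical axis) and mean normalized count on a log scale (horizontal axis) for all listed genes in grey and transcription factor genes by class, for PCB180 on the left and PCB153 on the right at 96 h. In the left panel the C2H2 genes that fell lie at 1079 to 1381 counts, to the right of those that rose.

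All 4 bZIP genes with a row fell, and all 4 had that row for PCB180 at 96 h only. Of all 821 genes listed for PCB180 at 96 h, 650 likewise had no row for PCB153. The gene ptg000015l.613 fell to 31.6% of the control level, with a log2FC of -1.66 ± 0.33 (adjusted p 9.21e-05) in the authors' deposited table. The genes ptg000021l.108 and ptg000005l.630 had -1.43 ± 0.43 and -1.41 ± 0.42, with adjusted p of 0.0174 and 0.0160, in the authors' deposited table. The fourth, ptg000005l.382, was at -1.01 ± 0.35 (adjusted p 0.0408) in the authors' deposited table. With an adjusted p under 0.01, 1 bZIP gene was left, beside 384 of all 821 listed genes. Beside them, 2.67% of the 11313 tested genes fell under PCB180 and 302 of 821 listed genes were falls, and bZIP genes that passed no threshold were not in the rows used here.

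The Myb-like gene ptg000007l.82 rose under PCB180 by a log2FC of 1.73 ± 0.51 at a mean normalized count of 55.8, in the authors' deposited table. Subunit 2 of the initiation factor TFIIA (ptg000007l.263), a general factor that steadies the TATA-binding protein on promoters and has no target pathway of its own, rose by 1.65 ± 0.58 (adjusted p 0.0442) in the authors' deposited table. A gene annotated only by a transcription factor domain, ptg000006l.15, rose under PCB153 by 1.36 ± 0.29 (adjusted p 0.000774) in the authors' deposited table.

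For both PCB180 and PCB153, 6 transcription factor genes had a row, 3 of the Zn(2)-C6 and 3 of the C2H2 class, and both comparisons share the 96 h control. Beside ptg000015l.431, the Zn(2)-C6 gene ptg000005l.589 had 1.17 ± 0.40 for PCB180 and 1.30 ± 0.38 for PCB153, and ptg000017l.119 had -1.04 ± 0.34 for PCB180 and -1.19 ± 0.32 for PCB153, as log2FC values of the authors' deposited table. Among C2H2 genes the difference between PCB180 and PCB153 was -0.69 (95% interval -1.59 to 0.20) for ptg000002l.310, -0.25 (-0.80 to 0.30) for ptg000009l.681 and 0.21 (-0.49 to 0.91) for ptg000011l.226. Among the remaining Zn(2)-C6 genes it was -0.13 (-0.90 to 0.63) for ptg000005l.589 and 0.15 (-0.50 to 0.79) for ptg000017l.119. With a row for both, 0 of these 6 differences passed the normal test of the difference, with adjusted p from 0.835 to 0.997 over the 171 genes listed for both, and each interval still holds differences of 0.79 or more in size. In all, 8 differences between congeners were tested for transcription factor genes, of which 1 had an adjusted p under 0.05. Over all genes listed for both congeners of a pair, 3 of 7 passed for PCB180 minus PCB101. For PCB180 minus PCB153 it was 0 of 171, and for PCB153 minus PCB101 0 of 9. The 1 call is therefore not particular to transcription factor genes. The authors' own direct comparison of PCB180 with PCB153 held 1 row (0.00884% of 11313 tested genes), which is not a transcription factor gene. That row had a log2FC of 0.86 ± 0.16 at 96 h in the authors' deposited table. The limit of 1 in the comparisons with a control therefore did not apply to this list, and its own limits are unknown.

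**Figure D4:**
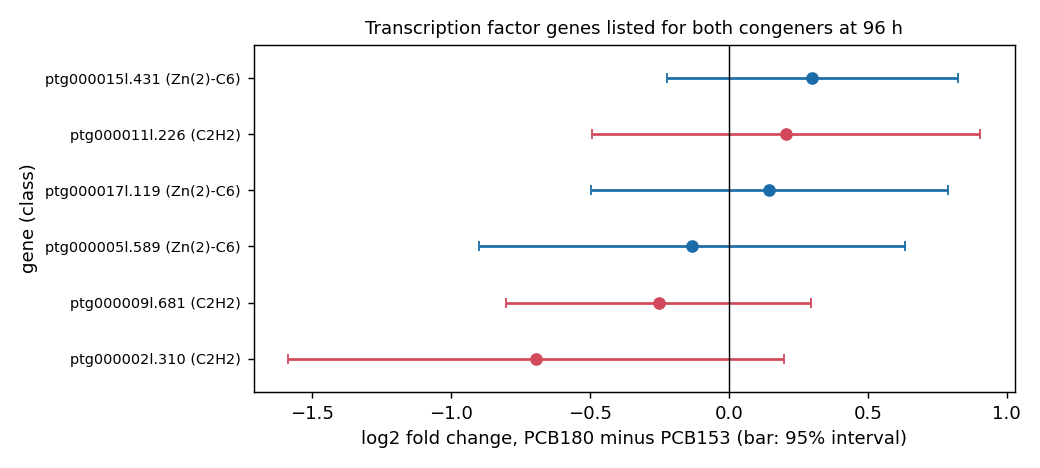
Difference in log2FC, PCB180 minus PCB153, for the 6 transcription factor genes with a row for both congeners at 96 h, with 95% intervals from a normal test that takes a correlation of 0.5 for the shared control. Every interval spans 0, and that of ptg000002l.310 reaches from -1.59 to 0.20.

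The remaining 18 genes of PCB180 and 7 of PCB153 at 96 h had a row for 1 of these congeners only. Over all listed genes, 650 of the 821 for PCB180 and 90 of the 261 for PCB153 likewise had a row for only 1 of them. A gene tested for PCB153 but without a row there had an absolute log2FC under the larger of 1 and 3.13 standard errors, which for the 18 genes comes to 1 to 1.71, with the PCB153 standard error taken as 0.95 times that of PCB180. The thresholds of the 2 lists nearly fix that a PCB180 value lies at or beyond such a limit, so nothing is read from it. Whether these genes differed between the congeners was not tested here. The authors' direct comparison of PCB180 with PCB153 had no row for any of them, which leaves the size of their differences unknown. The genes with a PCB153 row only were ptg000006l.14, ptg000006l.15, ptg000006l.16, ptg000012l.368, ptg000003l.84, ptg000005l.616 and ptg000027l.184.

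Positions are known only as gene numbers along a contig. Of the 32 genes, 10 had another gene listed in the same comparison within 2 gene numbers, or 31.2%, beside 283 of 920 listed genes, or 30.8%. A run of 3 consecutive numbers, ptg000006l.14, ptg000006l.15 and ptg000006l.16, held a Zn(2)-C6 gene, a gene with a transcription factor domain and a C2H2 gene, and all 3 rose under PCB153 at 96 h, with no row for PCB180. Their log2FC values were 1.54 ± 0.46, 1.36 ± 0.29 and 1.02 ± 0.23 in the authors' deposited table. Whether these are separate genes or pieces of fewer gene models cannot be told from the files. The Zn(2)-C6 gene ptg000015l.612 and the bZIP gene ptg000015l.613 also carry consecutive numbers and fell by 1.64 ± 0.36 and 1.66 ± 0.33 (log2) under PCB180, in the authors' deposited table. Whether reads were counted by strand is not given in the sources used here, so overlapping neighbours could share reads.

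Outside these runs, the Zn(2)-C6 gene ptg000016l.81 (1.53 ± 0.35) lies beside a protein kinase gene, ptg000016l.80, that rose by 1.20 ± 0.34 under PCB180 in the authors' deposited table. The C2H2 gene ptg000006l.512 (1.34 ± 0.34) lies beside an aldo/keto reductase gene, ptg000006l.511, of a family that reduces carbonyl groups, which rose by 1.13 ± 0.27 under PCB180 in the authors' deposited table. In the opposite direction from its neighbour, the C2H2 gene ptg000019l.509 was at -1.80 ± 0.39 and the rhodopsin domain gene ptg000019l.507 at 1.79 ± 0.58 under PCB180 in the authors' deposited table. The Zn(2)-C6 gene ptg000027l.405 and the C2H2 gene ptg000011l.226 each adjoin a gene without annotation that rose under PCB180.

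A wider list, set by words in the annotation, held 14 further genes. Besides the transcription machinery and its cofactors, it took in NmrA-like proteins and a protein with the regulatory domain of an activator. NmrA-like genes were among both the rises and the falls under PCB180, and their annotation does not place them in transcription. Of the wider list, 7 genes rose and 6 fell under PCB180, and 4 rose and 1 fell under PCB153. Over all tested genes, 4.59% rose and 2.67% fell under PCB180, and 1.82% rose and 0.579% fell under PCB153. Rises were 63.2% of all 821 genes listed for PCB180 and 75.9% of the 261 for PCB153. The wider list was not tested against these shares. The largest rise under both congeners was in RPAC2 (ptg000010l.535), a subunit shared by RNA polymerases I and III, with 2.17 ± 0.59 for PCB180 and 2.04 ± 0.56 for PCB153 in the authors' deposited table. RPABC5 (ptg000005l.367), shared by all 3 polymerases, had 1.60 ± 0.41 for PCB180 and 1.75 ± 0.39 for PCB153, and TFIID subunit 13 (ptg000018l.273) had 1.59 ± 0.53 for PCB180 and 1.65 ± 0.50 for PCB153, by the authors' deposited table. The largest falls under PCB180 were in Mediator subunit 11 (ptg000006l.332), part of the complex that links activators to RNA polymerase II, at -1.49 ± 0.52, in a SAP30 subunit of a histone deacetylase complex (ptg000017l.57) at -1.33 ± 0.37, and in a protein with the regulatory domain of a xylanolytic transcriptional activator (ptg000003l.466) at -1.20 ± 0.32, per the authors' deposited table. Subunit beta of the initiation factor TFIIF (ptg000027l.127) and Mediator subunit 7 (ptg000021l.234), named after their values were seen, both fell under PCB180, at -1.02 ± 0.26 for TFIIF and -1.02 ± 0.21 for Mediator subunit 7 in the authors' deposited table. The 1 fall under PCB153 was in an NmrA-like protein (ptg000010l.706), a family named for a repressor of a nitrogen regulator in Aspergillus, at -1.60 ± 0.42 with a mean normalized count of only 13.6 in the authors' deposited table.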

How the data were processed

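The submitters sequenced 50 samples. Per the labels' protocols, extraction used TRIzol and library preparation selected polyA RNA. No aligner, counter, genome build or test program is given in the sources used here. What the authors deposited is a table with 1 row per gene and comparison: per the file headers, log2 values (the fold change and its standard error), a score (the test statistic), a p-value with its adjusted p-value, and the mean normalized count (a signal). A second deposited table, rounded, adds annotations. On all 1102 rows the deposited score is the log2FC divided by its standard error.

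From these, genes were matched by annotation words, normal 95% intervals were computed, and the number of tested genes was recovered from p-value ratios (tolerance 0.0001). Differences between congeners were tested with a two-sided normal test, Benjamini-Hochberg adjusted per pair of congeners. The test was also run on simulated data with the correlation of 0.5 and equal standard errors built in and without the listing thresholds. That run therefore cannot check the correlation, the wider PCB180 standard errors or the selection by listing. The correlation of 0.5 assumes equal groups with 1 shared control and was not measured. Named were members in 2 or more comparisons or at 24 h, up to 4 rises and 4 falls per class and comparison, and up to 3 per direction from the wider list. Members and lists were chosen with earlier results of these data known. Alternatives were stricter thresholds, a filter on low counts, narrower membership, other correlations and other windows. Python 3.11.15, pandas 2.3.3, numpy 2.4.6, scipy 1.17.1 and matplotlib 3.10.9 were used.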

Additional observations from a re-analysis of the deposited data

Results flagged for a closer look

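The rise of the Zn(2)-C6 gene ptg000015l.431 at 96 h differed between congeners by the test of the difference. PCB180 minus PCB101 was 0.80 on the log2 scale, from 2.21 for PCB180 and 1.41 for PCB101 in the authors' deposited table (adjusted p = 0.00963 over 7 genes, normal test). These 7 genes are those listed for both congeners, a selected set, and 3 of them had an adjusted p under 0.05. For ptg000015l.431 the adjusted p of the normal test was 0.105 over all pairs together and 0.119 with a correlation of 0.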

How the results depend on the processing

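Of 144 values recomputed under an alternative, 104 kept their side of the threshold, or stayed within 1.5 times for a count and within 1 median standard error for a median. Stricter thresholds removed many genes, by construction. With an adjusted p under 0.01, 6 transcription factor genes rose and 6 fell under PCB180 and 4 rose and 1 fell under PCB153. At that threshold Zn(2)-C6 genes split 2 to 3 for PCB180 (signed median log2FC -1.56, against -1.08 with all listed genes) and 1 to 0 for PCB153 (1.91, against 1.08), 2 C2H2 genes rose under PCB153, and the wider list had 3 rises for PCB180 and a split of 1 to 0 for PCB153. With a log2FC of at least 1.5 in size the splits were 6 to 7 for PCB180 and 4 to 0 for PCB153, and 0 genes were left for PCB101. Under the same limit Zn(2)-C6 genes split 2 to 4 for PCB180 (signed median -1.56) and 2 to 0 for PCB153 (1.73). The C2H2 genes split 2 to 2 for PCB180 and 2 to 0 for PCB153 (1.99). The signed C2H2 median for PCB180, 1.32 with all listed genes, was -0.060 under that limit. This is the middle of the 2 to 2 split and not the value of any gene. Without the 25% of genes with the lowest counts it was -1.14, where 2 C2H2 genes rose and 3 fell for PCB180. With that filter 2 C2H2 genes rose for PCB153 and 7 transcription factor genes rose for PCB180. Leaving out the TFIIA subunit, a gene with a further annotation, or the Rei1 and LYAR types (the last chosen after seeing the data) kept every count within 1.5 times.

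For transcription factor genes, the number of differences between congeners with an adjusted p under 0.05 was 1 as reported. This number was 0 with a correlation of 0, 2 with 0.7 and 0 when adjusted over all pairs together. It stayed at 1 with the correlation of a PCB180 group with 1 sample fewer (chosen after seeing the data). Within 5 gene numbers 19 genes had a listed neighbour, or 59.4% beside 54.3% of all 920, and within 1 gene number 9 did, or 28.1% beside 20.2%. No paired analysis was possible because the tables used here hold comparisons and no values per sample. For the same reason no replicate could be left out, and depth per sample is unknown.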
